A study of Homo sapiens with 8 samples.

Results

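The nuclear receptor genes other than the PPAR genes were examined for 2 histone acetylation marks, H3K9ac and H4K16ac, in KGN cells. All 42 listed genes could be assessed, among 19754 protein-coding genes assessed in all. KGN is an established cell line derived from a human ovarian granulosa cell tumour. Chromatin immunoprecipitation and sequencing (ChIP-seq) was done after 6 h with 1 mM butyrate and in control cells kept without it. Butyrate, a product of gut bacteria, blocks several histone deacetylases. Each mark had 1 library per condition, so the comparisons below are descriptions of pairs of libraries, with no test and no replicate error. All cells came from 1 line and shared the same medium with serum, and no genotype or other agent differed between the groups. A gene was called marked where a merged peak lay within 1 kb of its annotated start, either the authors' or that of RefSeq, and peaks overlapping the gene itself were counted separately as peaks inside it. A promoter peak that reaches into the gene counts in both ways.

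Nuclear receptors are transcription factors, most of which are switched by small fat-soluble ligands such as steroids, retinoids, thyroid hormone and sterols. Others, the orphan receptors, have no established ligand or are controlled mainly by how much of them is made. Many bind DNA at copies of the hexamer AGGTCA and recruit coactivators with histone acetyltransferase activity or corepressors that carry histone deacetylases. In granulosa cells NR5A1 and NR5A2 drive steroid synthesis, and ESR2 is the main estrogen receptor. H3K9ac is a mark of active promoters, and H4K16ac is an acetylation of histone H4 linked to open chromatin.

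The H3K9ac lists held 79356 merged peaks with butyrate and 22215 in control, and the H4K16ac lists held 33752 with butyrate and 73586 in control. Both H3K9ac lists ended at a q value of 0.05. The H4K16ac lists reached a q of 0.621 with butyrate and 0.304 in control, and 381 butyrate peaks and 29141 control peaks of this mark had a q of at most 0.05. The H4K16ac peak names carry the tag k12, although the labels name the antibody as H4K16ac. Read depth is not given in the sources used here, so a difference in the length of 2 lists and a difference in depth cannot be told apart. Nonspecific immunoglobulin lists held 3 peaks with butyrate and 6 in control, none of them in or near a receptor gene. Of 12 granulosa marker genes, 7 were marked by H3K9ac with butyrate and 4 in control. FOXL2, the granulosa lineage factor, was marked in both libraries, as were INHA, CYP11A1 and RUNX1. AMHR2, INHBA and FST were marked with butyrate alone, and AMH, FSHR, CYP19A1, GATA4 and WT1 in neither. Of 7 theca and stroma markers 5 were marked with butyrate and 1 in control, and of 6 endothelial markers 2 with butyrate and 0 in control. Of 6 immune markers 2 were marked with butyrate and 0 in control, and of 6 epithelial markers 3 with butyrate and 2 in control. Over all genes assessed, 63.7% were marked by H3K9ac with butyrate and 54.6% in control. No marker list lost an H3K9ac promoter peak.

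Promoter sequences from RefSeq (GRCh38.p14, 250 bases before to 50 after a start, read along the gene's strand) are given for 6 receptors whose starts show the main patterns of marking. They were chosen after their peaks had been seen. NR4A1 has a start with H3K9ac in the butyrate library alone and a start marked in both. RARA carried both marks in both libraries, NR1D2 had H3K9ac in both and H4K16ac in control alone, and NR3C1 and HNF4A had no H3K9ac at these starts, with H4K16ac in control alone at NR3C1 and in both libraries at HNF4A. NR5A1 had no peak of either mark. Capitals show 3 motifs, each read on both strands, so that its reverse complement is capitalised too. GGGCGG is the core of the GC box bound by SP1. The second motif, TATAAA, is the TATA box of core promoters. The receptor half-site named above is the last of them.
NR4A1 upstream start, chr12:52022582-52022881, plus strand: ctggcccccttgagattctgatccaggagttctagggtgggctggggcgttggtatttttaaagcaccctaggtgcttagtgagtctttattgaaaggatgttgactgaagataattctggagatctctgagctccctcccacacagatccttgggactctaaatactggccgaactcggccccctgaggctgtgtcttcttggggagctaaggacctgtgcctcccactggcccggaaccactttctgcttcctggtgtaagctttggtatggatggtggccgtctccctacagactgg
NR4A1 downstream start, chr12:52037465-52037764, plus strand: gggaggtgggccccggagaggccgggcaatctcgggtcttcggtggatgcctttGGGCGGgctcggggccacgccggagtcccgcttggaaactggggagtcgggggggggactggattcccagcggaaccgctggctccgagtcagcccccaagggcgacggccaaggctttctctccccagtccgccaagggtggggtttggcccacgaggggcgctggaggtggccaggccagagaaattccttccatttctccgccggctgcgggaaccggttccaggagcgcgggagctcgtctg
RARA, chr17:40308930-40309229, plus strand: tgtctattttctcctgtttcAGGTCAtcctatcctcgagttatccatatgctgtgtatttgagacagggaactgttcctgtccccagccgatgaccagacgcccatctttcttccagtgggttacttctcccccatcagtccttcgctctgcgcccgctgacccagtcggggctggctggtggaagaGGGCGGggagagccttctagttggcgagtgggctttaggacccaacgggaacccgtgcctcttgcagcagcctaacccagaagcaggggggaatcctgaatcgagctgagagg
NR1D2, chr3:23945036-23945335, plus strand: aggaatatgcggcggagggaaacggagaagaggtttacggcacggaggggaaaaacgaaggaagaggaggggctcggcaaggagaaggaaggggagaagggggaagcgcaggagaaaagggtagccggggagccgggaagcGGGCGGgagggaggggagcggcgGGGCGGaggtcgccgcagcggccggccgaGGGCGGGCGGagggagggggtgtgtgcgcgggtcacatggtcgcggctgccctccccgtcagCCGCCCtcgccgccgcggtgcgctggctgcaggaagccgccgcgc
NR3C1 gene start, chr5:143435463-143435762, minus strand: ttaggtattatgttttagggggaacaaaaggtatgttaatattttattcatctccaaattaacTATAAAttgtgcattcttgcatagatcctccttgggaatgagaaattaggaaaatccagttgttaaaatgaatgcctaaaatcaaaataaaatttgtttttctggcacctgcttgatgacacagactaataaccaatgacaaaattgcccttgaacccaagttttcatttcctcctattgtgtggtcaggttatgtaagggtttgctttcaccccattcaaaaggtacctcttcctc
HNF4A, chr20:44400989-44401288, plus strand: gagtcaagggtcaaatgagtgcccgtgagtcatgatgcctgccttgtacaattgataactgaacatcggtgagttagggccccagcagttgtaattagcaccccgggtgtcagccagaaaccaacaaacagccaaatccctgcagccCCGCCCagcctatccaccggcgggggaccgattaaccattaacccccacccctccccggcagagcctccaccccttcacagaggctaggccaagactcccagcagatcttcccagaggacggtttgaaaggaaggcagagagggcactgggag
NR5A1, chr9:124507350-124507649, minus strand: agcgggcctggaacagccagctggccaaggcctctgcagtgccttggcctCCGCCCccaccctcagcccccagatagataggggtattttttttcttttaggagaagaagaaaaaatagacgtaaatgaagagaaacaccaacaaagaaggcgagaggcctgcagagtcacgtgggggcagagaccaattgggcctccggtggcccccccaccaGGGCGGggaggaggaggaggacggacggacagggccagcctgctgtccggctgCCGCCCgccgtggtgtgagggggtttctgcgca
Among these windows, that of NR1D2 held 5 copies of the GC box and 36 CpG dinucleotides, some of the copies overlapping. The NR3C1 window held no CpG at all and 1 TATA box. The RARA window was the only 1 of the 7 printed with a receptor half-site. The upstream NR4A1 window held 5 CpG and none of the motifs, and the downstream one 25 CpG and 1 GC box.

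H3K9ac marked the promoters of 23 of the 42 receptor genes with butyrate and 23 of 42 in control, and they were the same 23 genes. This is 54.8% in each library, with an exact 95% binomial interval of 38.7 to 70.2% that covers counting error only. The shares over all genes were 63.7% with butyrate and 54.6% in control. No receptor promoter gained H3K9ac with butyrate and none lost it, against 9.29% of all genes gained and 0.182% lost. Of genes with no H3K9ac in control, 20.5% gained it with butyrate, while 0 of the 19 unmarked receptor genes did. The all-gene shares depended on the length of the lists. As deposited, 1835 of all genes gained an H3K9ac promoter peak and 36 lost it. With equal numbers of top peaks 638 gained it and 526 lost it, and 0 receptor genes gained and 0 lost it. Whether the receptors differ from other genes was not tested. Of genes marked in control, 99.7% kept the mark and 0.334% lost it, and all 23 receptor genes marked in control kept it. 

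**Figure D1:**
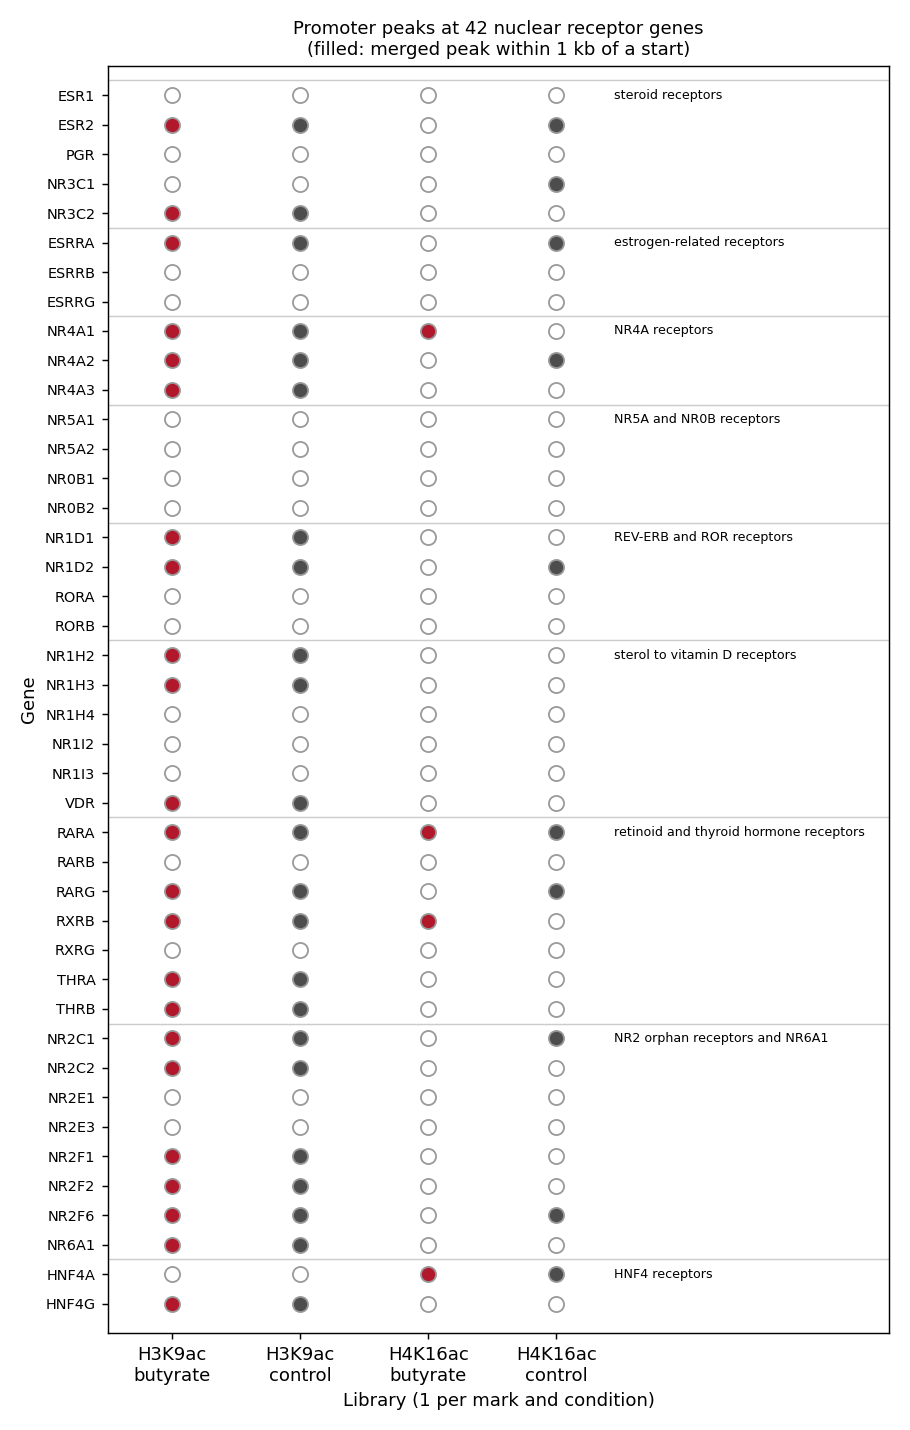
Promoter marking of the 42 receptor genes, 1 row per gene by subfamily, in the 4 libraries; a filled circle is a merged peak within 1 kb of a start. The H3K9ac columns are identical with 23 filled circles each, and the H4K16ac columns hold 4 with butyrate and 10 in control.

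The marked genes were spread unevenly over the subfamilies. All 3 NR4A genes, immediate-early orphan receptors induced by gonadotropins in granulosa cells, were marked in both libraries. None of the 4 NR5A and NR0B genes was marked in either. These are the steroidogenic activators NR5A1 (SF-1) and NR5A2 (LRH-1) and their repressors NR0B1 (DAX-1) and NR0B2 (SHP). Of the steroid receptors, ESR2 and the mineralocorticoid receptor NR3C2 were marked in both, and ESR1, the progesterone receptor PGR and the glucocorticoid receptor NR3C1 in neither. Of the estrogen-related receptors, regulators of energy metabolism, ESRRA alone was marked. Both REV-ERB genes, NR1D1 and NR1D2, which repress transcription in the circadian clock, were marked, and RORA and RORB, activators at the same elements, were not. NR1H2 and NR1H3 (the liver X receptors) and the vitamin D receptor VDR were marked. The bile acid receptor NR1H4 and the xenobiotic receptors NR1I2 and NR1I3 were not. Marked retinoid and thyroid hormone receptors were RARA, RARG, RXRB, THRA and THRB, while RARB and RXRG were unmarked. NR2C1, NR2C2, the COUP-TF genes NR2F1 and NR2F2, NR2F6 and NR6A1 were marked. NR2E1 and NR2E3, known from neural and retinal tissue, were unmarked. HNF4G was marked and HNF4A, a regulator in liver and gut, was not.

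The fold and the −log10 q of a peak are the authors' own values and rank peaks within a list. In the butyrate list the strongest promoter peak of a receptor gene was that of NR1D2, with a −log10 q of 25.4 and a fold of 10.5. NR4A2, NR2C2, RXRB, RARA and NR2F6 followed it with −log10 q values of 21.6, 21.5, 20.3, 20.2 and 20.2. The top promoter peak of VDR was the lowest of the 23 in that list, at 7.62. In the control list NR4A2 led with a −log10 q of 24.4 and a fold of 8.99. NR2F2 and RXRB came next, at 20.6 and 19.7. The control promoter peaks of NR3C2 and HNF4G were the weakest, at 2.57 and 4.76.

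At most of the 23 marked promoters the H3K9ac peaks were wider with butyrate. The summed width of a gene's promoter peaks had a median of 3512 bp with butyrate and 1387 bp in control. The width was larger with butyrate at 21 of the 23 genes, and the median ratio was 1.89 (butyrate over control). Over all 10755 genes marked in both libraries the medians were 2175 bp with butyrate and 1558 bp in control, the median ratio was 1.38, and 80.8% were wider with butyrate.

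RARA, a retinoic acid receptor, had promoter peaks summing to 11548 bp with butyrate and 3008 bp in control. They lie at its RefSeq start and at the authors' start farther downstream. NR2F1 had 7231 bp with butyrate and 1436 bp in control. Separate butyrate peaks lay upstream of its start, and no control peak lay within 1 kb upstream of it. THRA, the thyroid hormone receptor alpha gene, had 4442 bp with butyrate and 885 bp in control. VDR had the largest ratio, 5.36, with 2030 bp with butyrate and 379 bp in control. In these 4 genes the butyrate peaks covered far more sequence than the control peaks. NR4A1 had 6918 bp with butyrate and 2557 bp in control. NR2F2, which was among the strongest peaks of both lists, had 4805 bp with butyrate and 3762 bp in control, and NR4A2 had 4849 bp with butyrate and 4635 bp in control. ESR2 and NR4A3 were the only marked receptors with narrower promoter peaks. ESR2 had 1025 bp with butyrate and 1374 bp in control, and NR4A3 had 2946 bp with butyrate and 2957 bp in control, a difference of a few bases. The NR1H2 peaks were the narrowest in both lists, at 572 bp with butyrate and 285 bp in control.

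**Figure D2:**
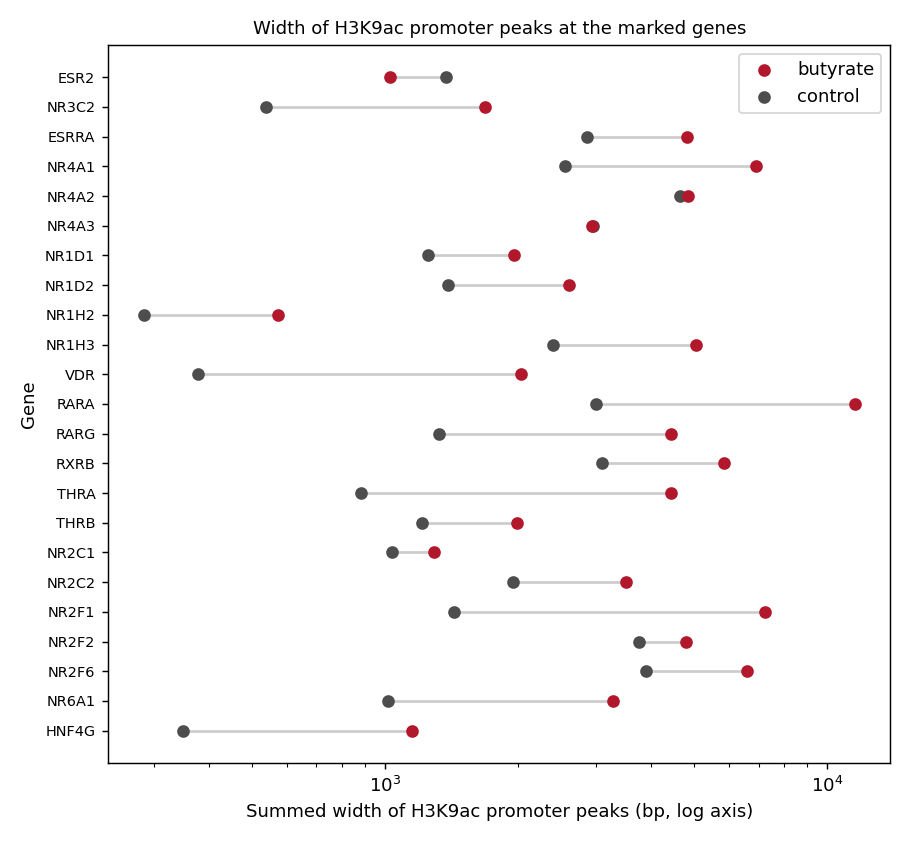
Summed width in bp (log axis) of the H3K9ac promoter peaks of the 23 marked receptor genes, butyrate and control joined by a line for each gene. Butyrate points lie right of control points for 21 genes, and for ESR2 and NR4A3 they lie left or nearly on them.

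At 3 of the 23 marked genes a promoter peak also lay within 1 kb of a neighbour's start, so that peak cannot be assigned to 1 gene. This holds for the peaks of NR1D2 (NKIRAS1) and RXRB (SLC39A7 and, with butyrate, HSD17B8). For NR1H3 it holds for the peak at its upstream start (ACP2), while the peaks at its downstream start had no other gene within 1 kb.

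Inside the receptor genes there were 163 H3K9ac peaks with butyrate and 70 in control. With butyrate 22 receptor genes had more peaks, against 49.4% of all genes, and 3 had fewer, against 4.34% of all genes. The other 17 had equal numbers, 12 of them with no peak in either library. Per 100 kb of gene, receptors had 2.94 peaks with butyrate and 1.26 in control, and all genes together had 4.29 with butyrate and 1.45 in control. NR1D1 and THRA overlap on opposite strands and share peaks, so 161 of the butyrate peaks are distinct.

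RARA held the largest number of H3K9ac peaks, 31 with butyrate and 8 in control. They covered 59.8% of the gene (chr17:40309180-40357643) with butyrate and 9.20% in control. NR4A1 (chr12:52022832-52059503) held 20 peaks with butyrate and 4 in control, covering 62.5% of the gene with butyrate and 9.32% in control. In both genes the butyrate peaks ran along nearly the whole length, while control peaks sat in a few places. RARG held 12 with butyrate and 7 in control, and 57.6% of the gene was covered with butyrate and 21.4% in control. NR1H3, the sterol sensor LXR alpha, held 11 with butyrate and 3 in control. THRA held 8 with butyrate and 2 in control. NR1D1, a REV-ERB gene of 7.80 kb, held 6 with butyrate and 1 in control. ESRRA held 5 with butyrate and 1 in control. NR2F6 reached the highest share of its length under H3K9ac, 79.1% with butyrate and 30.2% in control. The 3 genes with fewer peaks were NR2F2, with 9 with butyrate and 12 in control, and ESR2 and RXRB, with 1 with butyrate and 2 in control each. For NR2F2 the covered share was nevertheless 69.5% with butyrate and 49.8% in control, and for RXRB it was 40.9% with butyrate and 35.3% in control.

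**Figure D3:**
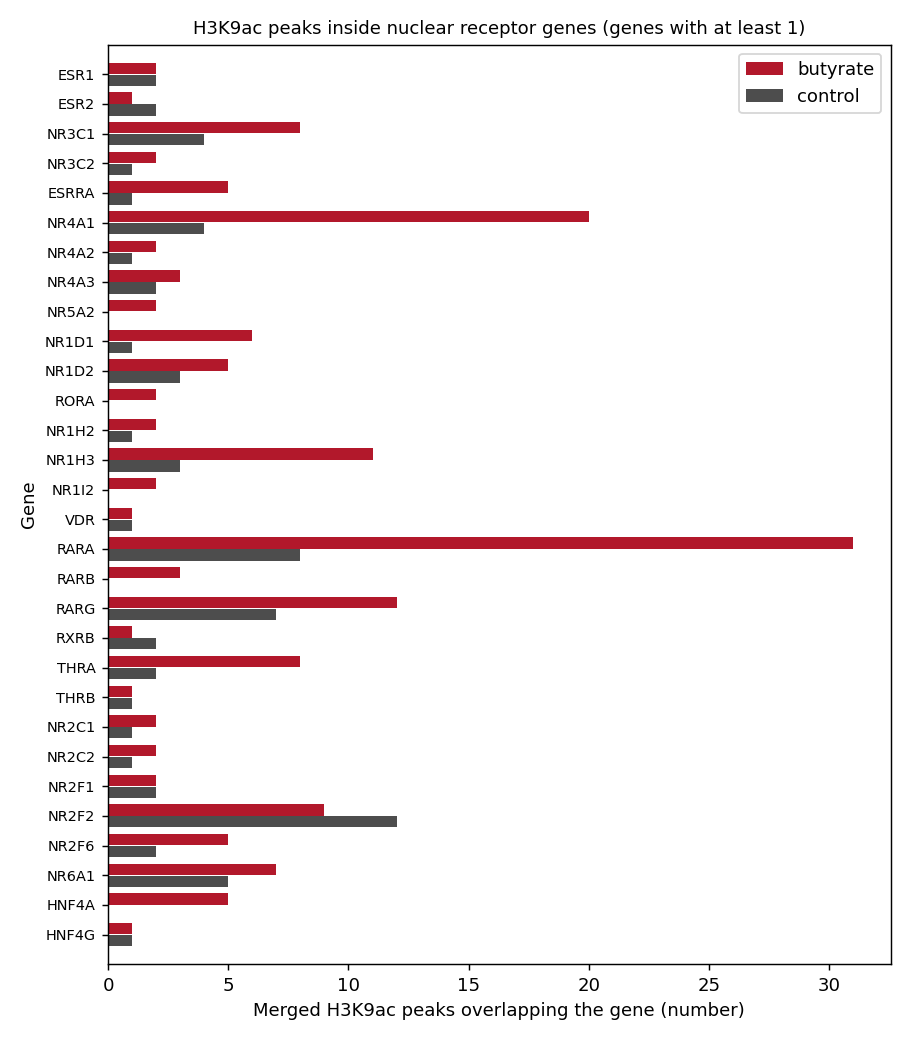
Number of merged H3K9ac peaks overlapping each receptor gene with at least 1 such peak, butyrate bars above control bars. RARA (31 with butyrate, 8 in control) and NR4A1 (20 with butyrate, 4 in control) reach farthest, and NR2F2, ESR2 and RXRB have the shorter butyrate bar.

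Of the 161 distinct butyrate peaks in receptor genes, 53 overlapped a control peak, which is 32.9% (exact 95% interval 25.7 to 40.8%), against 23.0% of all butyrate peaks. Of the 70 control peaks 67 overlapped a butyrate peak, or 95.7% (88.0 to 99.1%), against 92.4% of all control peaks. The 108 butyrate peaks with no control counterpart had a median width of 453.5 bp and a median fold of 3.47. The 53 shared ones had a median width of 1546 bp and a median fold of 5.96. The unshared peaks were thus the narrower and lower ones of the list. Of 78 unshared peaks that the authors' annotation places, 18 lay in a first intron, 43 in another intron, 2 in an exon and 15 elsewhere. The strongest unshared peak had a −log10 q of 16.8 and lay in RARA (chr17:40344307-40346231), 36.1 kb from its start. HNF4A had an unshared peak with a −log10 q of 11.4 at chr20:44384678-44385557, 29.4 kb into the gene.

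The count inside the genes moved with the number of peaks in a list. With the 22215 top peaks of each list, 69 butyrate and 70 control peaks lay inside receptor genes, and 10 genes had more with butyrate and 9 fewer. For peaks inside genes, shares over all genes were not counted at equal list length, so whether these counts are particular to the receptors is not known. With a −log10 q of at least 5 there were 80 with butyrate and 38 in control, 15 genes having more and 2 fewer. RARA then had 15 with butyrate and 3 in control, and NR4A1 had 8 with butyrate and 1 in control. When both lists were cut to the same length, RARA had 13 with butyrate and 8 in control, and NR4A1 had 5 with butyrate and 4 in control. The direction turned in RARG, with 5 with butyrate and 7 in control, and in NR3C1, with 2 with butyrate and 4 in control. It also turned in NR6A1, with 2 with butyrate and 5 in control, and in NR4A3, with 1 with butyrate and 2 in control. ESRRA then had 1 peak in each library and NR1D2 had 3 in each. NR1H3 had 4 with butyrate and 3 in control, THRA 5 with butyrate and 2 in control, and NR1D1 3 with butyrate and 1 in control.

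**Figure D4:**
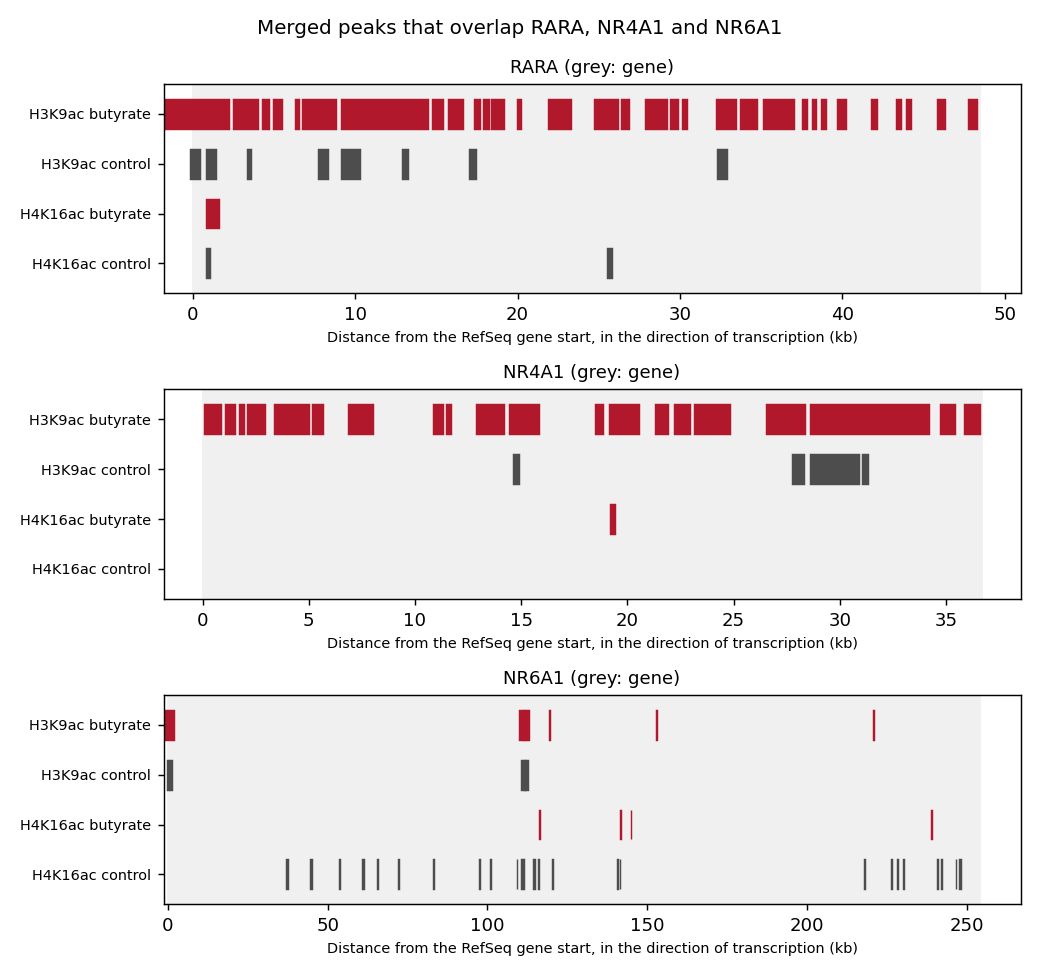
Merged peaks overlapping RARA, NR4A1 and NR6A1 by distance in kb from the RefSeq gene start, 1 row per library with butyrate above control for each mark and the gene in grey. RARA and NR4A1 show 31 and 20 H3K9ac butyrate peaks above 8 and 4 control peaks, and NR6A1 shows 4 H4K16ac butyrate peaks above 25 control peaks.

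Some genes carried H3K9ac away from the annotated start. NR3C1 had no H3K9ac within 1 kb of its gene start, but of its 7 RefSeq transcript starts the 5 that lie 30.2 to 32.2 kb downstream were marked in both libraries. The peak there spanned chr5:143399281-143405913 with butyrate and chr5:143399567-143405885 in control, with −log10 q values of 18.9 with butyrate and 17.4 in control. Inside NR3C1 there were 8 peaks with butyrate and 4 in control. Over 85 transcript starts of the 37 receptors in the RefSeq promoter table, 36 were marked with butyrate and 35 in control, with 1 gained and 0 lost. The gained start was the upstream one of NR4A1 (position 52022832 on chromosome 12), whose sequence is printed above. There the butyrate peaks had −log10 q values of 3.08 and 2.86, and no control peak lay within 1 kb. The NR4A1 start 14.9 kb downstream, also printed, was marked in both libraries. ESR1 had 2 peaks with butyrate and 2 in control, and the 1 in common lay about 107 kb inside the gene. At 5 genes with no H3K9ac promoter peak, peaks inside the gene appeared with butyrate alone: 2 in NR5A2, 2 in RORA, 2 in NR1I2, 3 in RARB and 5 in HNF4A. With equal numbers of top peaks NR5A2 and RARB had 0 with butyrate, and RORA, NR1I2 and HNF4A had 1 each. Of the 19 receptors without an H3K9ac promoter peak, 7 had peaks inside with butyrate and 2 in control. Of all 7128 such genes 1457 had them with butyrate and 373 in control. At 12 receptors no H3K9ac was listed at the promoter or inside in either library, and 10 of them had no peak of H4K16ac either. The 12 are 28.6% of the receptors, the same share as the 5656 of all 19754 genes (28.6%) without H3K9ac at promoter or inside. The 10 with neither mark were PGR, ESRRB, NR5A1, NR0B1, NR0B2, RORB, NR1H4, NR1I3, RXRG and NR2E1.

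Fewer receptor promoters carried H4K16ac with butyrate than in control. It marked 4 of 42 with butyrate (9.52%, exact 95% interval 2.66 to 22.6%) and 10 of 42 in control (23.8%, 12.1 to 39.5%). Of all genes 4.64% were marked with butyrate and 18.8% in control. RARA and HNF4A were marked in both libraries, NR4A1 and RXRB with butyrate alone, and 8 genes in control alone. The 2 gained compare with 2.57% of all genes and the 8 lost with 16.8%. Of all genes unmarked in control, 3.17% gained H4K16ac, and of the 32 unmarked receptors 2 did. Of all genes marked in control, 89.0% lost the mark with butyrate, and 8 of the 10 marked receptors did. The receptors thus lost H4K16ac peaks at a share near that of all genes.

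The 8 genes marked in control alone were ESR2, NR3C1, ESRRA, NR4A2, NR1D2, RARG, NR2C1 and NR2F6. Apart from NR3C1, each had H3K9ac at its promoter in both libraries. NR2C1, an orphan receptor known as TR2, had the strongest of these control peaks, with a −log10 q of 2.72, and RARG the weakest, at 1.06. The NR4A1 peak of the butyrate list (chr12:52021507-52021843) had a −log10 q of 0.384. The RXRB peak (chr6:33201750-33202544) had 0.795 and also lay within 1 kb of SLC39A7. Neither of the gained peaks reached a q of 0.05. At a q of at most 0.05, 0 receptors were marked with butyrate and 6 in control. Of all 19754 genes, 9 were marked with butyrate and 2076 in control at that limit. RARA had its H4K16ac peaks at almost the same place, chr17:40309995-40310791 with butyrate and chr17:40309978-40310229 in control. HNF4A was the only receptor with H4K16ac in both libraries and no H3K9ac at its promoter in either. The RARA peaks had −log10 q values of 1.23 with butyrate and 0.727 in control. At the HNF4A promoter the highest were 0.384 with butyrate and 1.21 in control. No H4K16ac promoter peak of either gene reached a q of 0.05.

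Inside the genes there were 44 H4K16ac peaks with butyrate and 116 in control. With butyrate 6 receptor genes had more, against 10.8% of all genes, and 14 had fewer, against 38.2% of all genes. Per 100 kb the receptors had 0.794 peaks with butyrate and 2.09 in control, and all genes had 1.46 with butyrate and 4.23 in control. NR6A1, a germ cell orphan receptor, held 4 with butyrate and 25 in control, all of the control ones 37.3 kb or more from the start. NR2C2 (TR4) held 1 with butyrate and 17 in control, and its close relative NR2C1 held 0 with butyrate and 9 in control. HNF4A held 7 with butyrate and 14 in control. In these 4 genes the control library had the larger number as deposited. NR1H3 held 0 with butyrate and 7 in control, and THRA 1 with butyrate and 6 in control. VDR held 6 in each library and THRB 5 in each, and NR3C1 held 4 with butyrate and 2 in control. Equal numbers in the 2 libraries did not mean equal positions: in VDR 1 of the 6 butyrate peaks overlapped a control peak, and in THRB 0 of 5 did.

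Of 44 butyrate peaks in receptor genes 6 overlapped a control peak, 13.6% (exact 95% interval 5.17 to 27.4%), against 13.4% of all butyrate peaks of this mark. Of 116 control peaks 6 overlapped a butyrate peak, 5.17% (1.92 to 10.9%), against 6.15% of all. With the 33752 top peaks of each list, 44 butyrate and 49 control peaks lay in the receptor genes, with 14 genes having more and 7 fewer. Here too, shares over all genes were not counted. The direction turned in HNF4A, with 7 with butyrate and 6 in control, and also in ESR1, NR1I2, RARA and RARB. NR6A1 had 4 with butyrate and 8 in control, NR2C2 had 1 with butyrate and 10 in control, and NR2C1 had 0 with butyrate and 5 in control. With q at most 0.05 there were 2 with butyrate and 43 in control. Around NR1H2 the H4K16ac lists were nearly empty. The nearest peak on the left lay 654 kb away with butyrate and 603 kb in control. To the right, the rest of the chromosome held 6 H4K16ac peaks with butyrate and 21 in control, but 338 H3K9ac peaks with butyrate and 170 in control.

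**Figure D5:**
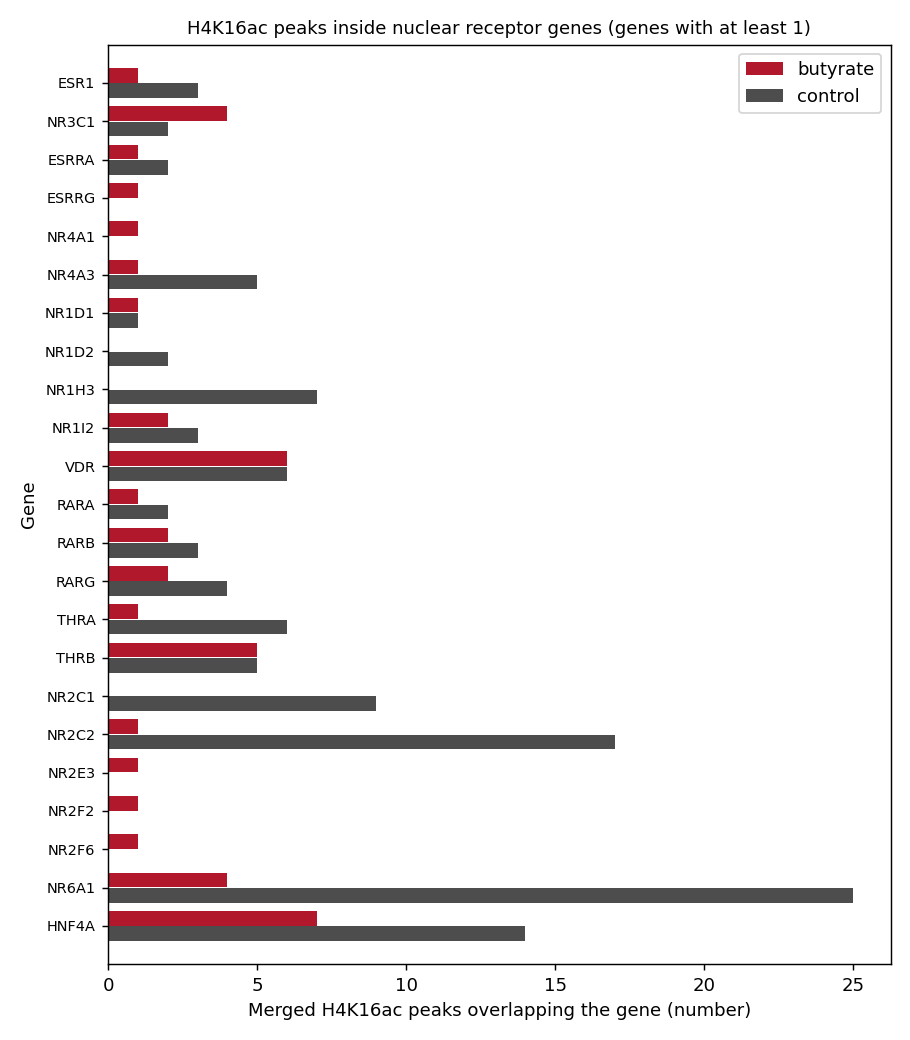
Number of merged H4K16ac peaks overlapping each receptor gene with at least 1 such peak, butyrate bars above control bars. Control bars are longest in NR6A1 (4 with butyrate, 25 in control), NR2C2 (1 and 17) and HNF4A (7 and 14), and VDR has 6 in each.

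Both marks together lay on 3 receptor promoters with butyrate and 8 in control. H3K9ac alone lay on 20 with butyrate and 15 in control, and H4K16ac alone on 1 with butyrate and 2 in control. Neither mark was found on 18 with butyrate and 17 in control. Over all genes, both marks lay on 3.55% with butyrate and 16.8% in control, and neither on 35.2% with butyrate and 43.4% in control. H3K9ac alone lay on 60.2% of all genes with butyrate and 37.8% in control, against 47.6% and 35.7% of the receptors. H4K16ac alone lay on 1.08% of all genes with butyrate and 1.97% in control, against 2.38% and 4.76% of the receptors. The 3 receptors with both marks under butyrate were RARA, NR4A1 and RXRB.

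Base composition was compared at the first listed RefSeq start of the 37 receptors in the promoter table. The 20 with H3K9ac at that start in either library had a median GC content of 62.3% and a median observed-to-expected CpG ratio of 0.830. The 17 without had 54.7% and 0.410. The 20 are not a part of the 23 marked receptors. They include NR3C1 at a start downstream of its unmarked gene start, and NR4A1 at a start marked with butyrate alone. Over all genes the marked promoters (10160) had 65.7% and 0.847, and the unmarked (5651) had 53.7% and 0.346. Exceptions went both ways. NR1H3 was marked at a start with a CpG ratio of 0.105, while RXRG, NR0B1 and NR2E1 were unmarked at ratios of 0.972, 0.850 and 0.806. The GC box GGGCGG stood in 13 of the 20 marked and 7 of the 17 unmarked receptor windows. Over all genes it stood in 72.6% of marked and 33.1% of unmarked windows. TATAAA stood in 0 of 20 marked and 3 of 17 unmarked receptor windows, and over all genes in 5.26% of marked and 17.5% of unmarked ones. AGGTCA stood in 2 of 20 marked and 4 of 17 unmarked receptor windows, and over all genes in 9.69% of marked and 15.3% of unmarked ones. Of all 35116 promoter windows, 45.0% held the GC box, 11.5% the TATA box and 13.8% the half-site. Both strands were searched, and a match is only a match of letters.

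Genes that act with the receptors were counted in the same way, against 63.7% of all genes marked by H3K9ac with butyrate and 54.6% in control, and 4.64% marked by H4K16ac with butyrate and 18.8% in control. Of 20 coregulator genes, which include the NCOA coactivators, all 20 were marked by H3K9ac with butyrate and 20 in control, so none could gain it. For H4K16ac 3 were marked with butyrate and 7 in control. NCOA3, MED1, EP300 and PELP1, 4 of those 7, were marked in control alone. Of all genes marked by H4K16ac in control, 89.0% lost it. The H4K16ac calls of the coregulators were made without a limit on q.

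Of 22 genes of ligand supply and clearance, H3K9ac marked 9 with butyrate and 7 in control. The gained genes were CRABP2, a retinoic acid carrier, and CYP24A1, which breaks down vitamin D. H4K16ac marked 3 with butyrate and 3 in control. CYP27B1, which makes active vitamin D, and HSD11B2, which inactivates cortisol, gained it. DIO1, a thyroid hormone deiodinase, and HSD11B1, which regenerates cortisol, lost it. No limit on q was set for these H4K16ac calls. Over all genes 508 gained an H4K16ac promoter peak as deposited, and 4 did at a q of at most 0.05.

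Of 22 known target genes, H3K9ac marked 14 with butyrate and 8 in control. The 6 gained were PER1, a clock gene induced by glucocorticoids, PDZK1, an estrogen target, MYLIP, an LXR target, CYP24A1, the clock activator BMAL1, which REV-ERB and ROR receptors control, and STRA6, the receptor for retinol-binding protein. They are 6 of the 14 targets unmarked in control, against 20.5% of all genes unmarked in control, and this difference was not tested. H4K16ac marked 3 targets with butyrate and 3 in control. PER1 and STRA6 gained it, and the phosphatase gene DUSP1 and the lipid regulator SREBF1 lost it. These H4K16ac calls, too, were made without a limit on q. STRA6 held 16 H3K9ac peaks inside the gene with butyrate and 0 in control.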

How the data were processed

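The peak lists of 6 libraries from KGN cells, 1 per mark or immunoglobulin and condition, were analysed, without the inputs. CASAVA 1.7 and MACS2 2.1.0 are named in the submitters' processing notes, which give hg19 (GRCh37) as build. Gene starts in the authors' columns, however, lay a median of 67 bp from the GRCh38.p14 RefSeq starts of 15277 genes, and 98.4% lay within 100 kb, so positions are given as GRCh38 and file starts were taken as counted from 0. Per the file headers, each peak has the authors' fold enrichment, a ratio, and deposited −log10 p and −log10 q values. The deposited peak score is derived from these p or q values and was not used further. Aligner and duplicate filter: not given in the sources used here.

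Overlapping rows of a list were merged, keeping chromosomes 1 to 22 and X, with the highest −log10 q and fold of the rows. Peaks were assigned to genes with Python 3.11.15, pandas 2.3.3, numpy 2.4.6 and scipy 1.17.1, and an overlap of at least 1 bp counted. Of 19970 RefSeq protein-coding genes, 19754 could be assessed and 216 could not. For 32 receptors the authors' start was available. The assignment was tested on simulated peaks. The receptors and the other lists were chosen with earlier results of these data known. All receptors are named, and of the coregulator, ligand and target lists the genes that gained or lost a promoter peak. The granulosa markers are named by their H3K9ac calls, and the other marker lists are given as counts.

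Alternatives were other windows (0.5 and 2.5 kb), other starts, equal numbers of top peaks, limits on fold, q or (H3K9ac alone) −log10 q, and an overlap of 200 bp. All RefSeq transcript starts and a common −log10 p limit were added after seeing the data. With 1 library per group there is no replicate to leave out.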

Additional observations from a re-analysis of the deposited data

How the results depend on the processing

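For H3K9ac 47 recomputed values stayed within 1.5 times the reported count and 9 did not, and for H4K16ac 32 stayed and 18 did not. Receptors gaining H3K9ac (0 as reported) became 1 with the RefSeq start alone (NR4A1), 5 at a fold of at least 5 (NR3C2, NR4A1, RARG, NR6A1 and HNF4G) and 2 where −log10 q had to reach 5 (NR3C2 and HNF4G). Receptors losing it (0) became 2 at a fold of at least 5 (NR1D1 and VDR). Of all 19754 genes, 1613 gained H3K9ac and 1278 lost it at that fold, and 1483 gained it at that −log10 q. With the RefSeq start alone 1834 of all genes gained it. H3K9ac peaks inside receptors (163 with butyrate, 70 in control) became 69 and 70 with equal numbers of top peaks, 48 and 23 at a fold of at least 5, and 80 and 38 where −log10 q had to reach 5. Receptors marked by H4K16ac with butyrate (4) became 1 with a window of 0.5 kb, 1 with the authors' starts alone, 1 with an overlap of 200 bp, 0 at a fold of at least 5 and 0 at a q of at most 0.05. Those marked in control (10) became 0 at that fold and 6 at that q. Of all genes, 0 were marked with butyrate and 57 in control at that fold, and 9 and 2076 at that q. The 2 gained became 0 under each of those 5 alternatives, and the 8 lost became 0 at a fold of at least 5. H4K16ac peaks inside receptors (44 with butyrate, 116 in control) became 1 and 0 at that fold and 2 and 43 at that q, and those in control became 49 with equal numbers of top peaks. A −log10 q of 5, outside this tally for H4K16ac, left 0 H4K16ac peaks inside receptors with butyrate and 0 in control. Fewer peaks are used under a limit by construction; for the other changes the cause was not tested. No paired analysis was possible because each group has 1 sample. No library has a replicate, and read depth is unknown, so neither biological nor technical spread enters any value.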
